A study of Mus musculus with 17 samples.

Results

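Klotho, the renal sodium phosphate transporters and the enzymes and receptor of the vitamin D hormone are described here by 10 genes, Kl, Fgfr1, Slc34a1, Slc34a3, Slc20a1, Slc20a2, Pdzk1, Cyp27b1, Cyp24a1 and Vdr, of the 55806 gene identifiers that were counted in any library. The genes were listed by symbol and matched to Ensembl identifiers without their version, and all 10 were found in all 17 libraries. The samples were 4 cultures of non-senescent primary tubular epithelial cells (PTEC), 4 cultures of senescent PTEC and whole kidneys from 3 mice at each of 3, 12 and 24 months of age. All were from wild type (genotype WT) mice, labelled C57BL/6Rj and given as C57BL/6JRj in the methods, which state male mice for the kidneys. Non-senescent PTEC were taken on day 6 without irradiation and senescent PTEC on day 16 after γ-irradiation with 10 Gy, so that irradiation and 10 further days in culture cannot be told apart. PTEC grow out of sieved fragments of collagenase-digested kidneys and are not sorted, and each kidney sample was a piece of the right kidney with all its cell types. The labels do not say which mice gave the cultures, so that p-values between cultures measure the spread between these samples.

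Klotho is a membrane protein of the renal tubule that turns FGF receptors, Fgfr1 above all, into receptors for FGF23, a phosphate-lowering hormone from bone. Through klotho, FGF23 removes sodium phosphate cotransporters from the brush border of the proximal tubule, lowers the synthesis of active vitamin D by Cyp27b1 and raises its breakdown by Cyp24a1. Active vitamin D acts through its nuclear receptor Vdr, of which Cyp24a1 is a classical target, and parathyroid hormone raises Cyp27b1 in the proximal tubule.

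Kl (ENSMUSG00000058488) lies on chr5:150952607-150993817 of GRCm38, Fgfr1 on chr8:25513654-25575718, Slc34a1 on chr13:55398187-55415592, Slc34a3 on chr2:25228898-25234364, Slc20a1 on chr2:129198764-129211616, Slc20a2 on chr8:22476788-22569612, Pdzk1 on chr3:96829284-96870926, Cyp27b1 (ENSMUSG00000006724) on chr10:127048250-127053006, Cyp24a1 (ENSMUSG00000038567) on chr2:170482708-170497145 and Vdr on chr15:97854425-97910630. The counts are of whole genes. All 10 genes carry the same version in each of the gene sets on which the libraries were counted. Exons of Kl, Slc34a3, Cyp27b1 and Vdr overlap no other gene in the annotation, whereas those of the other 6 overlap a gene on the opposite strand, among them Pfdn4 for Cyp24a1 and Gpr89 for Pdzk1. The strand setting of the counting is not given in the sources used here, so that reads of such partners could have been counted on these 6 genes.

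The bases before the RefSeq start sites of 4 genes are shown, for these reasons. Of the 10 genes, Cyp27b1 and Slc34a3 were those called higher between 12 and 24 months of age. The call of Slc34a3 was lost in each fit that left out 1 of these kidneys (adjusted p from 0.115 to 0.158, edgeR). Slc34a1 and Pdzk1 had the lowest ratios of senescent to non-senescent PTEC among the genes for which a ratio could be given. Each sequence holds the 250 bases upstream of the start site, 5′ to 3′ on the strand of the gene, in lower case, from RefSeq on GRCm38.p6. Promoters were matched for 7 of the 10 genes. Capitals mark matches, on either strand, to AGGTCA and AGTTCA, hexamers bound by nuclear receptors such as Vdr. The window of Cyp27b1 is chr10:127047996-127048245 on the plus strand, that of Slc34a3 is chr2:25234235-25234484 on the minus strand, that of Slc34a1 is chr13:55399398-55399647 on the plus strand and that of Pdzk1, at the first of its 2 start sites, is chr3:96829815-96830064 on the plus strand.
Cyp27b1: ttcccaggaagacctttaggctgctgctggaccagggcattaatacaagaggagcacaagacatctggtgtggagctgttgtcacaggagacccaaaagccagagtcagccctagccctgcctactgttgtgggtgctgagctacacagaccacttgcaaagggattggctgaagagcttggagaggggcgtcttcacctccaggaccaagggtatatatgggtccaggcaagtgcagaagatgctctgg
Slc34a3: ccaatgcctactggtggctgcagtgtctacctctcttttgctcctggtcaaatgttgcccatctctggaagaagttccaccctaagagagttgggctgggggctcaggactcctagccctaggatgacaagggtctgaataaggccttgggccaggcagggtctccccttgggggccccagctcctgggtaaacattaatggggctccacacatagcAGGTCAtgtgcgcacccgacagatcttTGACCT
Slc34a1: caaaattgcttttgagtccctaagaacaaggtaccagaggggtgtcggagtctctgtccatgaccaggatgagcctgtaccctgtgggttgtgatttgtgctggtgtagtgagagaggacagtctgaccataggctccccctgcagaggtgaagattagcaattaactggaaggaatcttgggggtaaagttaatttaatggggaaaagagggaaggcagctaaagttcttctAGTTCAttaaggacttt
Pdzk1: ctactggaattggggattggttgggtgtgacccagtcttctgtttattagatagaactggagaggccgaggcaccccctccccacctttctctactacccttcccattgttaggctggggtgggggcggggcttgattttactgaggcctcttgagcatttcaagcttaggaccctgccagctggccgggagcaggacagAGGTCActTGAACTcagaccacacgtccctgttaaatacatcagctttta
AGGTCA was found in 14.0% of 32851 RefSeq promoter windows of this length and AGTTCA in 11.8%. A longer site of HNF4A, CAAAGTCCA, was in 0.384% of the windows and in none of the 7 genes. Slc34a3 holds AGGTCA at positions -33 and -6 from the start site. Pdzk1 holds AGGTCA at -50 and AGTTCA at -42, 2 bases apart and on opposite strands. Slc34a1 holds AGTTCA at -17. Of the other matched genes, Slc20a1 has 1 match at each of its 2 start sites, Vdr has 1, and Kl, like Cyp27b1, has 0 for the letters searched. These matches are descriptions of sequence, and binding was not measured.

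Depth was between 26963442 and 35409144 counts per PTEC library, and rose with age in kidneys, from 37311247 to 49471409 at 3 months, 54097073 to 59718029 at 12 months and 62761670 to 66894790 at 24 months. Levels are given as CPM, counts relative to library size after TMM scaling, which was done for PTEC and for kidneys apart. The 16 proximal tubule markers that were listed to check the labels summed to between 17200 and 25200 CPM in kidneys, but to between 240 and 481 CPM in non-senescent and between 43.2 and 69.2 CPM in senescent PTEC. In the cultures the organic anion transporter Slc22a6 was at 0 to 0.332 CPM and the transporter Slc7a13 at 0 to 0.161 CPM, while Hnf4a, a transcription factor of proximal tubule cells, was at 81.2 to 133 CPM in non-senescent and 12.0 to 14.8 CPM in senescent PTEC. The endothelial markers Pecam1 and Cdh5 were detected in all cultures, at 8.42 to 65.7 CPM. On the first principal component of 13319 genes, which held 48.7% of the variance between kidneys, 3-month replicate 3 stood lowest, and 3-month replicate 1 and 12-month replicate 2 came next. In 12-month replicate 2 all 10 genes were at their lowest among the kidneys of that age, in 24-month replicate 2 this was so for 8 and in 3-month replicate 3 for 7. In bulk samples fewer cells of a type and less RNA per cell cannot be told apart.

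**Figure D1:**
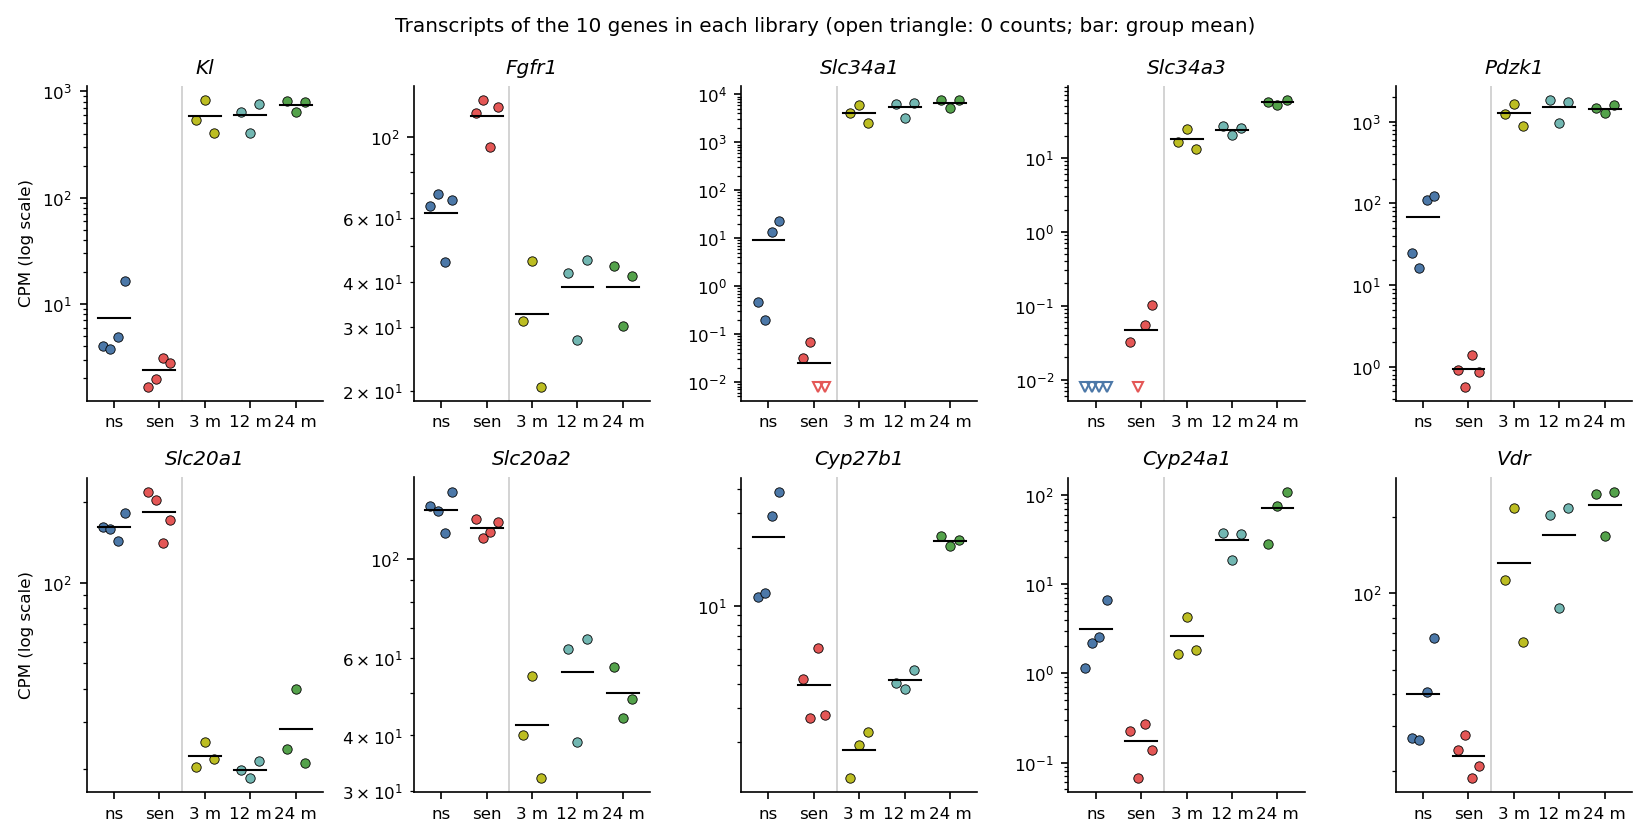
Each point is the level of a gene in 1 library, in CPM on a log axis, for non-senescent (ns) and senescent (sen) PTEC and for kidneys at 3, 12 and 24 months (m), with the group mean as a bar and 0 counts as open triangles. Kl, Slc34a1, Slc34a3 and Pdzk1 lie far higher in every kidney than in any culture, and Cyp27b1, Cyp24a1 and Slc34a3 lie higher in each 24-month than in each 3-month kidney.

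Senescent PTEC were compared with non-senescent PTEC to see what irradiation and time in culture did to these genes. After genes with low counts had been removed 8 of the 10 remained, of which 5 were called lower (Pdzk1, Cyp24a1, Cyp27b1, Kl and Vdr) and 1 higher (Fgfr1), and the phosphate transporters Slc20a1 and Slc20a2 were not called. Calls required an edgeR adjusted p below 0.05 and a log2 fold change beyond 0.5 in either direction, and in this comparison 39.8% of all 15434 tested genes were called, 20.1% higher and 19.7% lower. The median log2 fold change was -1.22 over the 8 genes and -0.00201 over all genes tested. Without non-senescent replicate 4 the median of the 8 was -0.65, and without each other culture it lay between -1.84 and -1.28 over the 8 or 9 genes then tested. Slc34a1 and Slc34a3 did not pass the filter.

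Kl was at 4.05, 3.74, 4.90 and 16.6 CPM in non-senescent cultures 1 to 4 and at 1.67, 1.97, 3.10 and 2.76 CPM in senescent cultures 1 to 4. Each senescent culture lay below each non-senescent culture, and non-senescent replicate 4 lay far above the rest. Kl fell by 1.62 on the log2 scale (SE 0.499, adjusted p = 0.0250, edgeR). Without non-senescent replicate 4 it fell by 0.83 (adjusted p = 0.0341), and without senescent replicates 1, 2 or 4 the call was lost (adjusted p from 0.0503 to 0.0708, of a range from 0.0165 over the 8 fits that left out 1 culture). The log2 fold change over those 8 fits was -1.84 to -0.83. Fgfr1, which encodes the FGF receptor that pairs with klotho, was at 64.6, 69.6, 45.5 and 67.1 CPM in non-senescent and at 116, 126, 93.9 and 121 CPM in senescent cultures. The groups did not overlap, with a log2 fold change of 0.89 (SE 0.163, adjusted p = 0.00193, edgeR). Klotho's transcript thus fell while that of its receptor partner rose in the same libraries.

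Slc34a1, the main sodium phosphate cotransporter of the proximal tubule, had 15, 6, 343 and 606 counts in non-senescent cultures 1 to 4, or 0.461, 0.197, 13.4 and 22.4 CPM, and 1, 2, 0 and 0 counts in senescent cultures 1 to 4. Non-senescent replicates 3 and 4 held nearly all of its counts. The summed counts of 970 and 3, scaled for depth, stood at a ratio of 355 (exact conditional 95% interval 121 to 1720, which covers counting error only). With no filter on low counts Slc34a1 was called lower (log2 fold change -8.36, adjusted p = 0.0371, edgeR). It had failed the filter used for the other genes, and its level in the non-senescent group rests on replicates 3 and 4. Slc34a3, the second renal cotransporter of this family, had 0 counts in all 4 non-senescent cultures and 1, 0, 2 and 3 counts in the senescent cultures, too few for a fold to be given.

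Pdzk1 encodes a scaffold protein that holds Slc34a1 and other transporters at the brush border. It was at 24.7, 16.0, 109 and 123 CPM in non-senescent cultures and at 0.900, 0.569, 1.4 and 0.863 CPM in senescent cultures, the latter from 17 to 52 counts per library. The groups lay far apart, and the high non-senescent cultures were again replicates 3 and 4. Pdzk1 fell by 6.17 on the log2 scale (SE 0.753, adjusted p = 0.000211, edgeR), and the log2 fold change was between -6.49 and -5.72 with each culture left out in turn. This was the largest fall among the 8 genes tested. Slc20a1 and Slc20a2, widely expressed phosphate transporters that also serve as retrovirus receptors, were at 161 ± 16.0 and 129 ± 11.4 CPM (SD, n = 4) in non-senescent and at 184 ± 34.8 and 118 ± 5.51 CPM (SD, n = 4) in senescent PTEC. Their groups overlapped, with log2 fold changes of 0.19 (SE 0.159, adjusted p = 0.359, edgeR) and -0.13 (SE 0.113, adjusted p = 0.367, edgeR).

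Cyp27b1, which makes active vitamin D, was at 11.2, 11.7, 29.2 and 38.6 CPM in non-senescent and at 4.21, 2.68, 6.10 and 2.76 CPM in senescent cultures. All senescent cultures lay lower, and Cyp27b1 fell by 2.52 on the log2 scale (SE 0.461, adjusted p = 0.00199, edgeR). Cyp24a1, which breaks active vitamin D down, was at 1.14, 2.20, 2.55 and 6.57 CPM in non-senescent and at 0.225, 0.0669, 0.270 and 0.138 CPM in senescent cultures, where it had between 2 and 10 counts. The groups did not overlap, and Cyp24a1 fell by 4.09 (SE 0.625, adjusted p = 0.000735, edgeR), and by 3.43 without non-senescent replicate 4. Vdr, the receptor, was at 26.9, 26.5, 40.9 and 66.7 CPM in non-senescent and at 24.1, 27.8, 18.8 and 20.9 CPM in senescent cultures. Senescent replicate 2 lay above non-senescent replicates 1 and 2, so that the groups overlapped. Its fall by 0.81 (SE 0.292, adjusted p = 0.0456, edgeR) was called, but not with the replicate number as a block (adjusted p = 0.0675), upper-quartile scaling (adjusted p = 0.0599) or a filter at a mean of 1 CPM (adjusted p = 0.0523), nor without non-senescent replicates 3 or 4 or any 1 senescent culture (adjusted p from 0.0538 to 0.107). Without non-senescent replicate 4, Vdr fell by 0.46 (adjusted p = 0.101, edgeR), and its log2 fold change was between -0.97 and -0.46 with each culture left out in turn.

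Cultures 3 and 4 of the non-senescent group were the highest 2 for Slc34a1, Pdzk1, Cyp27b1, Cyp24a1, Vdr and Kl. The 16 proximal tubule markers summed to 257, 240, 381 and 481 CPM in non-senescent cultures 1 to 4. Of the 10 of these markers that were tested, 9 were called lower in senescent PTEC and 0 higher, and their median was -2.70 on the log2 scale, from -6.38 for Acsm2 to -0.48 for Aqp1. Of the loop of Henle list, which includes markers of a segment outside the proximal tubule, 4 of 5 were called lower, with a range from -5.72 for Kcnj1 to 0.42 for Egf. Of 6 tested fibroblast and pericyte markers 4 were called higher, with a range from 0.67 for Pdgfra to 3.07 for Dcn, and the 7 listed genes summed to 14.5 to 101 CPM in non-senescent and 108 to 411 CPM in senescent PTEC. Of the distal tubule and collecting duct list 1 of 4 tested genes was called higher and 1 lower, with a range from -3.58 for Scnn1b to 1.01 for Trpm6. Endothelial and leukocyte markers each had 1 of 5 tested genes called, both lower, and 1 of 3 tested podocyte genes was called higher, with a range from -0.11 for Wt1 to 3.36 for Nphs1. The part of these shifts in the falls of Kl, Slc34a1, Pdzk1, Cyp27b1, Cyp24a1 and Vdr was not tested.

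Other genes of phosphate, FGF23, parathyroid hormone, calcium and vitamin D handling were taken from a list of 50. Like the 10 genes, the list was written with earlier results of these data known. Of the 50 listed genes 41 were tested. Of these 10 were called higher and 10 lower, against 20.1% of all genes tested called higher and 19.7% lower. The median log2 fold change of the 41 was -0.18, with -0.38 without non-senescent replicate 3 and -0.07 without replicate 4. The largest falls were those of Slc34a2, another sodium phosphate cotransporter, by 2.85 (adjusted p = 0.0122, edgeR), of S100g, a vitamin D dependent calcium-binding protein, by 1.90 (adjusted p = 0.0440), of the FGF receptor Fgfr4 by 1.71 (adjusted p = 0.000122) and of the parathyroid hormone receptor family member Pth2r by 1.46 (adjusted p = 0.00619). Slc34a2 spread from 11.7 to 140 CPM in non-senescent and from 3.25 to 12.3 CPM in senescent cultures, so that its groups overlapped, as did those of S100g. The largest rises were those of Alpl, alkaline phosphatase, by 2.05 (adjusted p = 0.0231, edgeR), of the calcium pump Atp2b4 by 2.03 (adjusted p = 0.0133), of Stc2, a stanniocalcin, by 2.02 (adjusted p = 0.000758) and of the vitamin D hydroxylase Cyp2r1 by 1.62 (adjusted p = 0.00727). Cyp2r1, the enzyme that acts before Cyp27b1, was at 0.154 to 0.509 CPM in non-senescent and at 0.783 to 1.48 CPM in senescent cultures. Fgf23 itself had 0 counts in all non-senescent cultures and all kidneys.

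**Figure D2:**
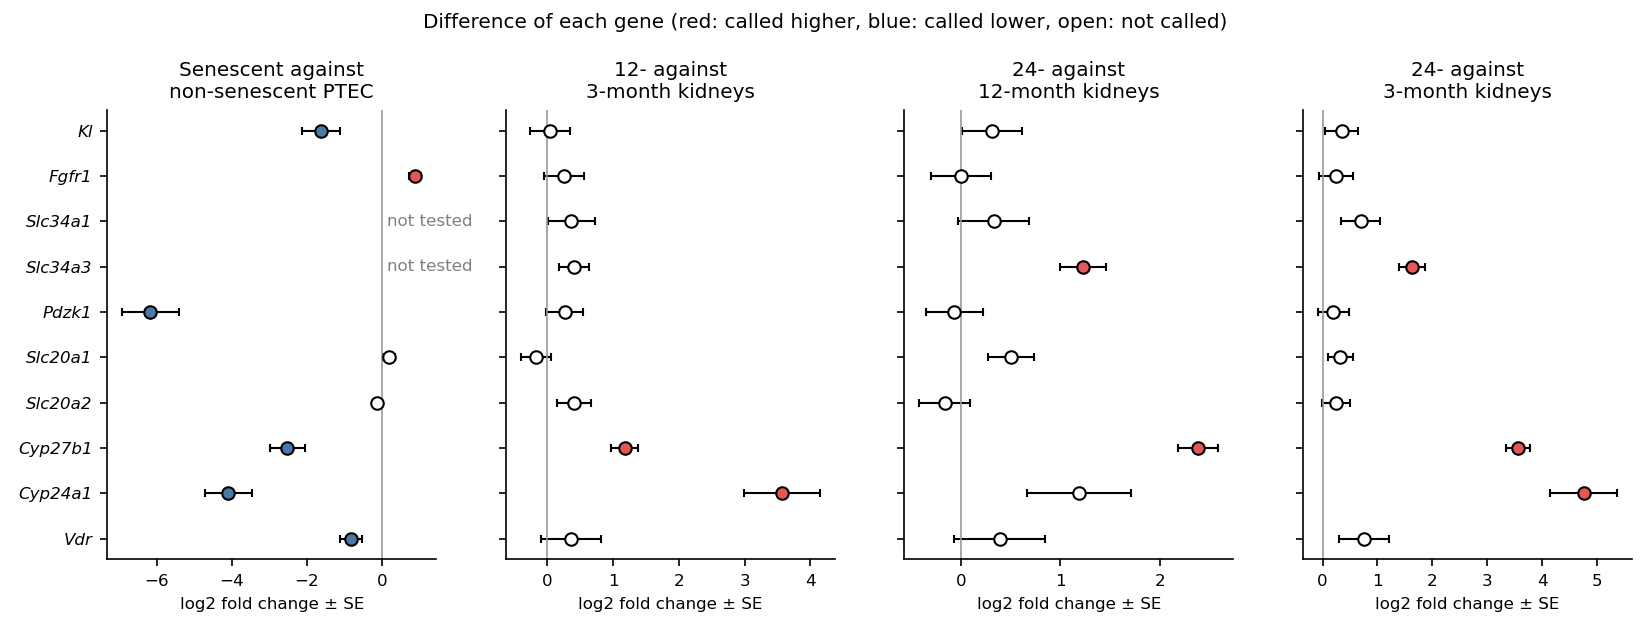
Points show the log2 fold change of each gene with its standard error in 4 comparisons, filled red where called higher, filled blue where called lower and open where not called, with a scale of its own for each comparison. Pdzk1, Cyp24a1 and Cyp27b1 lie farthest to the left in senescent PTEC, at -6.17, -4.09 and -2.52, and Cyp24a1 and Cyp27b1 lie farthest to the right in 24- against 3-month kidneys, at 4.76 and 3.56.

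Kidneys were compared between ages to see how these genes moved with normal ageing. Between 24 and 3 months, 3 of the 10 genes were called higher, Cyp27b1, Cyp24a1 and Slc34a3, against 2.34% of all 17067 tested genes called in either direction and 1.89% called higher. Those shares rest on 322 genes higher and 77 lower, which became 52 to 460 and 22 to 334 with 1 kidney left out. None of the 10 was called lower by edgeR or by DESeq2, and none had a lower level at an unadjusted p under 0.05, while 0.451% of all genes were called lower. The median log2 fold change was 0.52 over the 10 genes and 0.000728 over all genes tested, and the former went from 0.37 without 3-month replicate 3 to 0.86 without 3-month replicate 2. All 9 kidneys entered the same fit, and the 3-month kidneys serve as controls for both older ages, so that the comparisons with them are not independent. The 3-month kidneys were also counted on another gene set and had fewer counts than the older ones. In comparisons with them, age cannot be told apart from these differences.

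Cyp27b1 was at 1.31, 1.95 and 2.25 CPM in 3-month kidneys 1 to 3, at 4.02, 3.77 and 4.69 CPM in 12-month kidneys and at 23.0, 20.4 and 21.8 CPM in 24-month kidneys, from between 50 and 1506 counts per library. No 2 ages overlapped, and the SD at 24 months was 1.32 CPM. Cyp27b1 rose by a log2 fold change of 3.56 between 3 and 24 months (SE 0.215, adjusted p = 8.23e-05, edgeR), 11.8-fold, and was called in all 6 fits that left out 1 kidney, with changes from 3.38 to 3.73. Between 3 and 12 months it rose by 1.17 (SE 0.203, adjusted p = 0.0278, edgeR). That call was lost without 3-month replicate 1 or 12-month replicates 1 or 3 (adjusted p from 0.0851 to 0.1, of a range from 0.0307), and with these 2 ages fitted alone (adjusted p = 0.105). The log2 fold change was 0.99 to 1.34 over the fits without 1 kidney. Between 12 and 24 months Cyp27b1 rose by 2.38 (SE 0.201, adjusted p = 0.00459, edgeR), and with single kidneys removed the call was lost in the fit without 12-month replicate 1 (adjusted p = 0.0678, of a range from 0.0176). Those fits gave changes from 2.32 to 2.48.

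Cyp24a1 was at 1.65, 4.26 and 1.84 CPM in 3-month kidneys, at 37.3, 18.7 and 36.6 CPM in 12-month kidneys and at 27.9, 75.1 and 108 CPM in 24-month kidneys. The 3-month kidneys lay apart from both older ages, which overlapped each other, and the 24-month kidneys spread most. Between 3 and 24 months Cyp24a1 rose by 4.76 (SE 0.608, adjusted p = 0.00734, edgeR), 27-fold, and without 3-month replicate 1 the call was narrowly lost (log2 fold change 4.52, adjusted p = 0.0570, of a range from 0.00541). Between 3 and 12 months it rose by 3.57 (SE 0.579, adjusted p = 0.0224, edgeR), a call that stood in 2 of 6 fits with 1 kidney removed, those without 3-month replicate 2 and without 12-month replicate 2, and the adjusted p over the 6 ranged from 0.0116 to 0.113. The log2 fold change over the 6 was 3.335 to 4.145. The difference between 12 and 24 months was 1.19 (SE 0.519, adjusted p = 0.323, edgeR), which was not called. Pfdn4, the gene on the opposite strand whose exons overlap those of Cyp24a1, was at 15.0, 13.2 and 9.04 CPM on average at 3, 12 and 24 months. Cyp24a1 and Cyp27b1, enzymes with opposite effects on the hormone, were thus both higher in old kidneys. Per kilobase of exon, mean Cyp24a1 and Cyp27b1 levels were 0.726 and 0.713 CPM at 3 months, 8.67 and 1.62 CPM at 12 months and 19.7 and 8.44 CPM at 24 months.

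Slc34a3 was at 16.4, 24.9 and 13.3 CPM in 3-month kidneys, at 26.97, 20.1 and 25.2 CPM in 12-month kidneys and at 56.7, 52.1 and 60.0 CPM in 24-month kidneys. The 24-month kidneys lay above all others, and the 3- and 12-month kidneys overlapped. The log2 fold change was 1.63 between 3 and 24 months (SE 0.233, adjusted p = 0.0120, edgeR) and was called in 5 of the 6 fits with 1 kidney removed, the exception being that without 3-month replicate 1 (adjusted p = 0.0823, of a range from 0.00340). Over these fits it was 1.44 to 1.93. With the replicate number as a block over all 9 kidneys it was not called (adjusted p = 0.0586, edgeR). Between 12 and 24 months the log2 fold change was 1.23 (SE 0.230, adjusted p = 0.0443, edgeR), but none of the 6 fits without 1 of these kidneys called it (adjusted p from 0.115 to 0.158). In those fits it was 1.11 to 1.32, and at most 55 of all genes were called higher and 8 lower. Between 3 and 12 months the log2 fold change of Slc34a3 was 0.40 (SE 0.229, adjusted p = 0.454, edgeR).

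Slc34a1 was far more abundant than Slc34a3, at 4127, 5902 and 2502 CPM at 3 months, 6240, 3168 and 6714 CPM at 12 months and 7528, 5236 and 7500 CPM at 24 months. The ages overlapped, and the lowest kidneys at 3 and 12 months were replicates 3 and 2. Its log2 fold change between 3 and 24 months was 0.69 (SE 0.359, adjusted p = 0.328, edgeR), and it was not called in any fit. Per kilobase of exon the mean level of Slc34a1 was 893 CPM and that of Slc34a3 7.73 CPM at 3 months, against 1445 and 23.9 CPM at 24 months. Pdzk1 was at 1231, 1656 and 896 CPM at 3 months, 1827, 966 and 1748 CPM at 12 months and 1461, 1276 and 1607 CPM at 24 months. Again the ages overlapped, with a log2 fold change of 0.20 between 3 and 24 months (SE 0.284, adjusted p = 0.683, edgeR). Slc20a1 ranged from 18.5 to 25.3 CPM in 3- and 12-month kidneys and stood at 23.7, 39.8 and 21.1 CPM at 24 months, where replicate 2 was alone in lying above all others. Its log2 fold change between 3 and 24 months was 0.33 (SE 0.232, adjusted p = 0.440, edgeR) and -0.00144 without that kidney. Slc20a2 lay between 32.0 and 65.9 CPM over all 9 kidneys, with a log2 fold change of 0.24 (SE 0.254, adjusted p = 0.588, edgeR). Over the fits without 1 kidney, Slc34a1 ran from 0.43 to 1.03, Pdzk1 from 0.00306 to 0.45 and Slc20a2 from 0.07 to 0.47.

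Kl was at 539, 824 and 404 CPM at 3 months, at 643, 402 and 768 CPM at 12 months and at 813, 642 and 801 CPM at 24 months. The ages overlapped, and no 24-month kidney fell below 642 CPM. Its log2 fold change was 0.35 between 3 and 24 months (SE 0.301, adjusted p = 0.506, edgeR), 0.04 between 3 and 12 months (SE 0.300, adjusted p = 0.976) and 0.32 between 12 and 24 months (SE 0.301, adjusted p = 0.634), and was not called in any fit. With 1 kidney left out, the value for Kl ran from 0.14 to 0.68 between 3 and 24 months. It ran from -0.18 to 0.36 between 3 and 12 months, changing sign, and from 0.09 to 0.53 between 12 and 24 months. Fgfr1 was at 32.5 ± 12.6, 38.6 ± 9.63 and 38.6 ± 7.37 CPM (SD, n = 3) at 3, 12 and 24 months, with a log2 fold change of 0.25 between 3 and 24 months (SE 0.305, adjusted p = 0.636, edgeR). Vdr was at 113, 217 and 64.5 CPM at 3 months, at 203, 87.9 and 216 CPM at 12 months and at 246, 168 and 251 CPM at 24 months. Its ages overlapped, with a log2 fold change of 0.75 between 3 and 24 months (SE 0.458, adjusted p = 0.384, edgeR). Leaving out 1 kidney moved this value of Vdr between 0.43 and 1.33 and that of Fgfr1 between 0.00414 and 0.58.

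**Figure D3:**
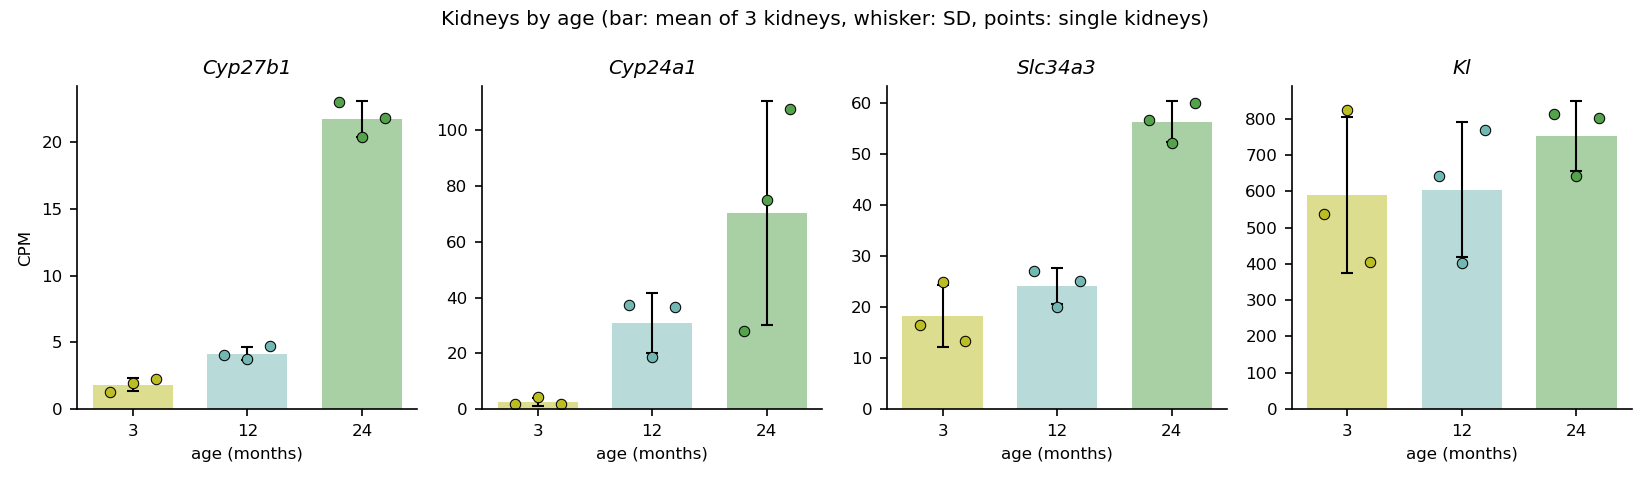
Levels in CPM of Cyp27b1, Cyp24a1, Slc34a3 and Kl in single kidneys at 3, 12 and 24 months (points), with bars for the mean of 3 kidneys and whiskers for the SD, on linear axes from 0. Cyp27b1 steps up mainly between 12 and 24 months, to 21.7 ± 1.32 CPM, Cyp24a1 is already at 30.9 ± 10.6 CPM at 12 months, and the ages of Kl overlap.

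Between 12 and 3 months, 2 of the 10 genes were called higher, Cyp27b1 and Cyp24a1, and 0 lower, against 1.22% of all genes called higher, 1.36% lower and 2.58% in either direction. Those shares rest on 209 genes higher and 232 lower, which became 31 to 249 and 21 to 469 with 1 kidney left out. With these 2 ages fitted alone they were 38 and 26. Between 24 and 12 months, 2 were called higher, Cyp27b1 and Slc34a3, and 0 lower, against 0.896% of all genes called higher, 0.434% lower and 1.33% in either direction. Without 1 of the kidneys of these ages, 0 to 55 of all genes were called higher and 1 to 8 lower, against 153 and 74 with all kidneys. In neither comparison did DESeq2 call any of the 10 lower, and none was lower at an unadjusted p under 0.05 in edgeR. Same-numbered kidneys of 12 and 24 months correlated at 0.172 to 0.557 after subtraction of group means, and differently numbered ones at up to 0.27. The labels name no shared batch. With the replicate number as a block for these 2 ages alone, a fit added after seeing the data, Cyp27b1 (adjusted p = 5.80e-05, edgeR) and Slc34a3 (adjusted p = 0.000409) were called between 12 and 24 months, whereas with that block over all 9 kidneys neither was (adjusted p = 0.0751 and 0.152). With both 3-month replicate 3 and 12-month replicate 2 left out, an alternative chosen after seeing the data, the 3 calls between 3 and 24 months stood, Cyp24a1 lost its call between 3 and 12 months (adjusted p = 0.0742) and Slc34a3 lost its call between 12 and 24 months (adjusted p = 0.0603, edgeR).

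Of 16 proximal tubule markers, 4 were called higher between 3 and 24 months and 0 lower, with a range from -0.36 for Keg1 to 1.88 for the glucose transporter Slc5a2, and they summed to between 17200 and 22100 CPM at 3 months, 19300 and 25200 CPM at 12 months and 20400 and 22500 CPM at 24 months. Of 7 leukocyte markers 2 were called higher, with Cd79a of B cells highest at 2.86, and their sum went from 51.4 to 103 CPM at 3 months to 95.9 to 140 CPM at 24 months. Fibroblast and pericyte markers summed to 124 to 142 CPM at 3 months and 192 to 233 CPM at 24 months, with 0 of 7 called by edgeR. The loop of Henle, endothelial, podocyte and distal lists had 0 genes called between 3 and 24 months, and in the distal list Aqp2, the water channel of the collecting duct, was lowest at -1.02. Between 3 and 12 months 1 distal marker was called lower, with Aqp2 lowest at -2.18, and 1 proximal tubule and 1 leukocyte marker were called higher. Between 12 and 24 months 0 markers of these lists were called, and Aqp2 was highest of its list at 1.17. The part of these markers in the rises of Cyp27b1, Cyp24a1 and Slc34a3 was not tested. The proximal tubule sums at 3 and 24 months overlapped, but single markers lay apart, such as Slc5a2 at 154 to 273 CPM at 3 months and 638 to 840 CPM at 24 months and, in the other direction, Aqp1 at 1280 to 1440 CPM and 1020 to 1200 CPM. Of the 16, Slc5a12, Slc6a19, Miox and Gatm also lay higher at 24 months without overlap, and Slc7a13 lower.

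Of the 50 listed pathway genes 44 were tested in kidneys. Between 3 and 24 months 3 were called higher and 0 lower, against 1.89% of all genes called higher and 0.451% lower. In this list, written with earlier results of these data known, the median log2 fold change of the 44 was 0.34, against 0.000728 over all genes. It was 0.17 without 3-month replicate 3 and 0.56 without 3-month replicate 2. DESeq2 called 4 higher and 1 lower, and without 3-month replicate 1 or 3 edgeR called 1 gene of the list. Gc, the vitamin D binding protein of plasma, was at 8.87, 9.07 and 11.02 CPM at 3 months and at 36.4, 42.1 and 37.6 CPM at 24 months, with 12.7 to 16.8 CPM at 12 months. No 2 ages overlapped, and Gc rose by 2.0 (SE 0.160, adjusted p = 0.000499, edgeR). Stc1, the stanniocalcin hormone linked to calcium and phosphate, was at 2.20 to 2.70 CPM at 3 months and 5.59 to 12.6 CPM at 24 months, a rise of 1.95 (SE 0.299, adjusted p = 0.0148, edgeR). Slc8a1, the sodium calcium exchanger, went from 8.21 to 25.8 CPM at 3 months to 63.7 to 119 CPM at 24 months (log2 fold change 2.59, adjusted p = 0.0242, edgeR), but its gene version differs between the gene sets of young and older kidneys, and the part of this in the difference was not tested.

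Between 12 and 24 months Stc1 (2.07, adjusted p = 0.0196, edgeR), Gc (1.4, adjusted p = 0.0163), Slc34a2 (1.25, adjusted p = 0.0499) and Stc2 (1.11, adjusted p = 0.0196) were called higher and 0 genes lower. Of all genes 0.896% were called higher and 0.434% lower. With each of these 6 kidneys left out in turn, edgeR called from 0 to 2 genes of the list, and with the replicate number as a block for these 2 ages alone it called 12, all higher, where that fit called 1297 of all 16686 genes higher and 903 lower. The block over all 9 kidneys called 0 genes, listed or not. Between 3 and 12 months the calcium channel Trpv6 was the 1 gene called, lower by 1.11 (adjusted p = 0.0396, edgeR), and its gene version differs between the gene sets as well. There 1.22% of all genes were called higher and 1.36% lower. In 5 of the 6 fits that left out 1 of these kidneys edgeR called no gene of the list lower. Egr1, a transcription factor gene that FGF signalling induces, had the largest log2 fold change of the list between 3 and 24 months, 4.01, without being called (adjusted p = 0.112, edgeR). It was at 463, 37.1 and 19.5 CPM in the 24-month kidneys, with replicate 1 far above the others, against 5.84 to 18.9 CPM at 3 months, and it was chosen for mention after its values were seen.

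**Figure D4:**
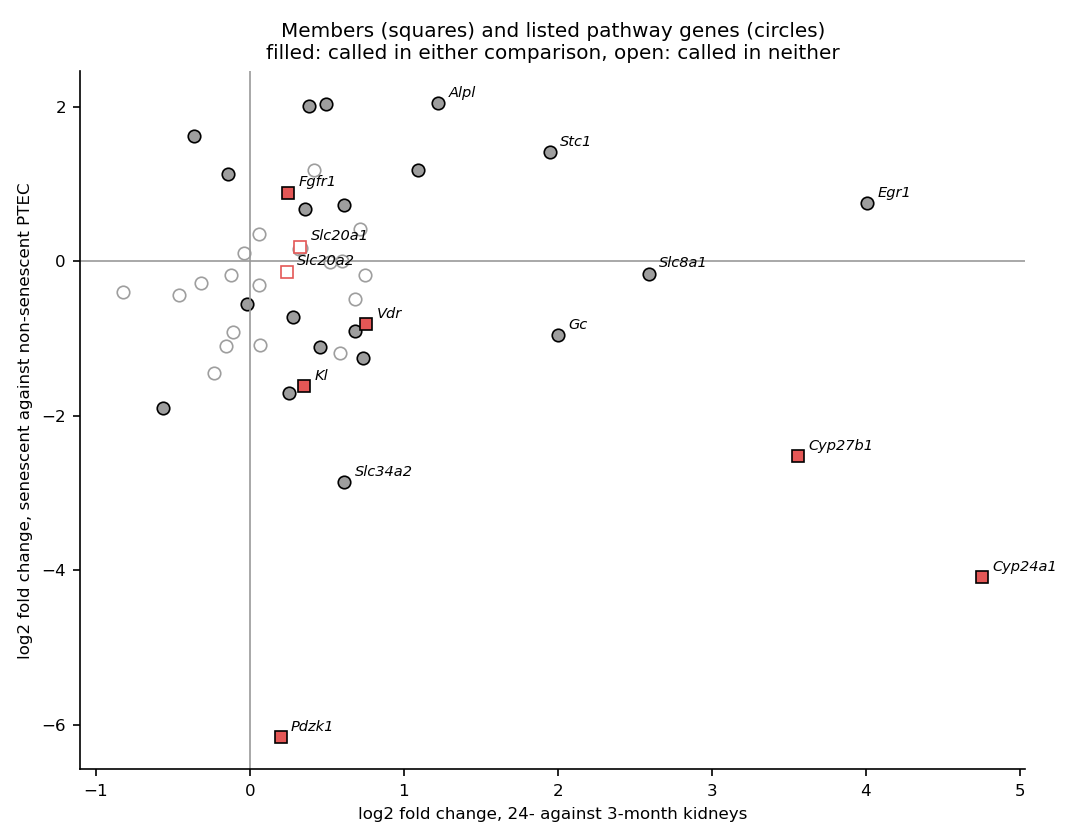
Each point is a gene tested in both experiments, 8 of the 10 genes as squares and 40 pathway genes as circles, with the log2 fold change of 24- against 3-month kidneys on the x axis and of senescent against non-senescent PTEC on the y axis, and filled where called in either. Cyp27b1 and Cyp24a1 lie at the lower right, higher in old kidneys (3.56 and 4.76) and lower in senescent PTEC (-2.52 and -4.09), while Fgfr1, at 0.25 and 0.89, was called in PTEC alone.

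The directions of Cyp27b1 and Cyp24a1 were thus opposite in the 2 experiments. Of the 8 genes tested in both, these alone were called between 24 and 3 months, so that the others could not be called alike. Slc34a1 and Slc34a3 did not pass the filter in PTEC. Of all genes 39.8% were called in PTEC and 2.34% between 24 and 3 months. Genes called alike in both were not counted over all genes. The experiments differ in cells, in what was varied and in the gene set used for counting, and the difference between them was not tested.

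Non-senescent PTEC were set against 3-month kidneys to show what of this gene group the cultures hold before irradiation. Cells, culture, preparation and gene set all differ here and cannot be told apart. All 17 libraries were scaled together for it. Of the 10 genes, 5 were called lower in PTEC (Slc34a3, Slc34a1, Kl, Pdzk1 and Vdr) and 3 higher (Cyp27b1, Slc20a1 and Slc20a2), while 67.5% of all 17999 tested genes were called, 32% higher and 35.5% lower. The median log2 fold change was -1.36 over the 10 genes, also with Slc34a3 at its bound, and -0.05 over all genes tested. Without 3-month replicate 2 it was -0.72 over the 10 genes.

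On this joint scale Slc34a3 was at 22.4 ± 7.30 CPM (SD, n = 3) in kidneys, from 2435 counts, and at 0 counts in the 4 cultures, so that it was at least 1110-fold lower in PTEC, taking a floor of 3 counts over the group. Slc34a1 was at 7.22 ± 8.53 CPM (SD, n = 4) in PTEC and at 5140 ± 2070 CPM (SD, n = 3) in kidneys, a log2 fold change of -9.48 (SE 1.16, adjusted p = 1.56e-06, edgeR). Kl was at 5.82 ± 4.91 and 725 ± 262 CPM, lower in PTEC by a log2 fold change of -6.96 (SE 0.516, adjusted p = 3.60e-09, edgeR). Pdzk1 was at 54 ± 43.9 and 1552 ± 463 CPM (log2 fold change -4.85, SE 0.576, adjusted p = 1.12e-06, edgeR), and Vdr at 32.0 ± 14.8 and 161 ± 95.1 CPM (-2.34, SE 0.394, adjusted p = 5.24e-05). Without non-senescent replicate 4 the log2 fold changes of Kl and Slc34a1 were -7.75 and -10.44, and without 3-month replicate 2 that of Vdr was -1.70. For each of these 5 genes every culture lay below every kidney. Such separation was not counted over all genes, of which 67.5% were called in this comparison.

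Cyp27b1 was higher in PTEC than in young kidneys, at 18 ± 10.7 CPM against 2.26 ± 0.597 CPM, with a log2 fold change of 2.98 (SE 0.430, adjusted p = 1.00e-05, edgeR). Slc20a1 was at 128 ± 12.5 against 27.7 ± 3.12 CPM (2.21, SE 0.220, adjusted p = 1.37e-07, edgeR) and Slc20a2 at 103 ± 9.06 against 52.0 ± 13.8 CPM (0.99, SE 0.198, adjusted p = 0.000294). For each of these 3 genes every culture lay above every kidney, which was likewise not counted over all genes. Fgfr1 (0.29, SE 0.245, adjusted p = 0.292, edgeR) and Cyp24a1 (-0.38, SE 0.528, adjusted p = 0.530) were not called, and their groups overlapped. Without 3-month replicate 2, Fgfr1 was called higher in PTEC (0.70, adjusted p = 0.0211, the lowest of the 7 fits that left out a library). Per kilobase of exon, and scaled within PTEC, the mean levels of the phosphate transporters in non-senescent cultures ran from Slc20a1 at 28.9 CPM and Slc20a2 at 20.8 CPM to Slc34a1 at 1.95 CPM and Slc34a3 at 0. In 3-month kidneys the order was Slc34a1 at 893 CPM, Slc34a3 at 7.73 CPM, Slc20a2 at 6.79 CPM and Slc20a1 at 4.03 CPM, and of these Slc34a1 was far above the other 3, which lay close together.

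**Figure D5:**
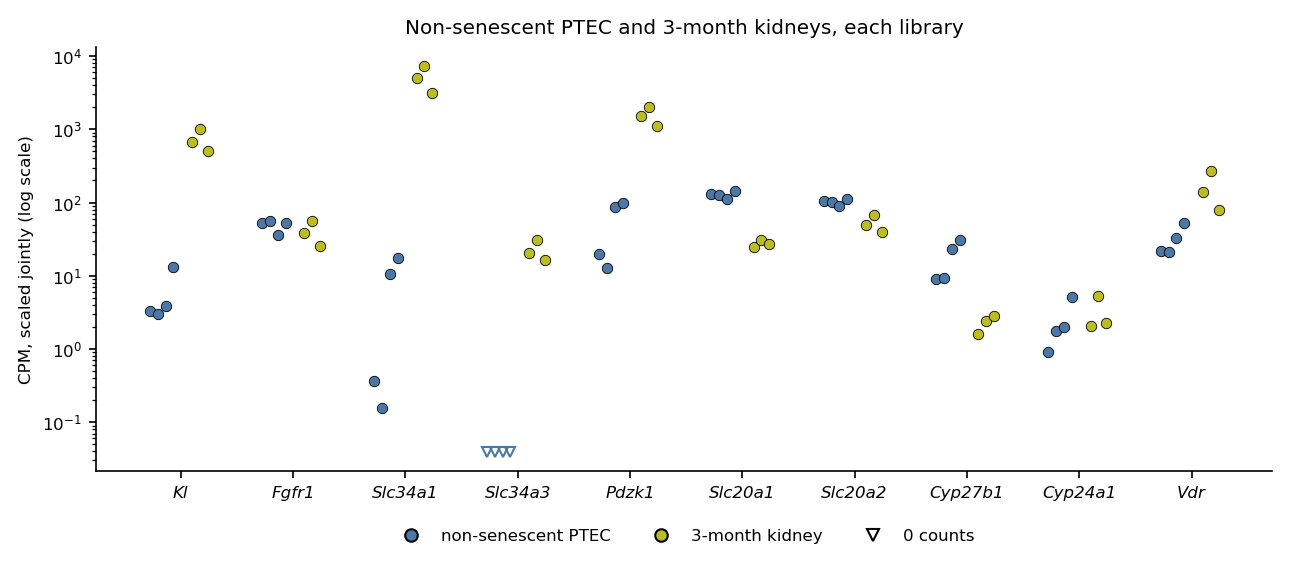
Points are single libraries of non-senescent PTEC (4 cultures) and 3-month kidneys (3 mice), in CPM scaled over all libraries on a log axis, with 0 counts as open triangles. Slc34a1, Slc34a3, Kl and Pdzk1 lie lower in every culture than in every kidney, and Slc20a1, Slc20a2 and Cyp27b1 lie higher.

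Of the 50 pathway genes 45 were tested in this comparison, and 12 were called higher and 25 lower in PTEC, with a median of -1.06. Of all genes tested 32% were called higher and 35.5% lower, with a median of -0.05. The aspartic protease Napsa, lower by a log2 fold change of -9.54 (adjusted p = 6.42e-08, edgeR), the calcium-binding proteins Calb1 (-8.84, adjusted p = 4.43e-10) and S100g (-7.16, adjusted p = 9.18e-08) and Alpl (-6.61, adjusted p = 1.55e-07) were lowest. Etv4, a target of FGF signalling, was highest at 6.50 (adjusted p = 1.81e-10, edgeR), followed by Pth2r (5.20, adjusted p = 1.23e-06), Slc34a2 (3.47, adjusted p = 0.000248) and Gc (3.01, adjusted p = 1.98e-08). Pth2r had 5 counts in all in the 3 young kidneys. Slc34a2, the remaining cotransporter of the family, was thus higher in the cultures, in which Slc34a1 and Slc34a3 were lower. All 16 proximal tubule markers were called lower in PTEC (median -7.94 on the log2 scale), as were 6 of 7 fibroblast and pericyte markers, 6 of 7 leukocyte markers, 4 of 5 loop of Henle, 8 of 9 distal, 3 of 5 endothelial and 3 of 4 podocyte markers. The remaining podocyte marker was called higher, and Wt1 had the highest log2 fold change of that list with 2.75. The part of cell composition in the differences between cultures and kidneys was not tested.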

How the data were processed

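RNA was sequenced from 4 non-senescent and 4 senescent PTEC cultures and from 3 kidneys at each of 3 ages. Libraries were stranded and mRNA-enriched, and according to the study's methods reads were processed with nf-core/rnaseq 1.4.2 on GENCODE release M18 (GRCm38). The aligner, the counter and its strand setting are not given in the sources used here. The deposited values are raw counts per gene for each sample, which the authors made on 3 gene sets, of 53715 genes for PTEC, 54146 for 3-month and 55401 for 12- and 24-month kidneys. Fits used the genes shared by the libraries compared, 53772 for kidneys and 53313 for all 17 libraries. Symbols and positions came from GENCODE release M21 (GRCm38), which names 55448 of 55806 identifiers.

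Counts were tested with edgeR 4.0.16 (quasi-likelihood test, TMM scaling, filterByExpr, robust) in R 4.3.3, with Benjamini-Hochberg adjustment over all genes tested. PTEC, kidneys and all 17 libraries were fitted apart. Calls needed an adjusted p below 0.05 and a log2 fold change beyond 0.5 in either direction. All 10 genes are named in every comparison, of the 50 pathway genes the called ones with the largest changes, at most 4 in each direction, and of the marker lists the ends of the range. The genes, lists and rules were chosen with earlier results of these data known. Alternatives were DESeq2 1.42.0, other scalings, filters and thresholds, the compared groups alone, a replicate block and each library left out in turn. The tests were checked on simulated data.

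Replicate numbers come from the labels. After subtraction of group means, same-numbered PTEC correlated at 0.186 to 0.614 and same-numbered 12- and 24-month kidneys at 0.172 to 0.557. Differently numbered PTEC reached 0.265 and kidneys of these 2 ages 0.27, and the labels name no shared batch. Same-numbered 3-month and older kidneys correlated at -0.701 to -0.0336. The main fits did not pair samples, and the replicate number was a block in alternative fits only. The 21 pairs of libraries within groups differed by more than sampling noise, with a chi-square per gene of at least 17.0. CPM per kilobase divides by the bases in any exon. Intervals and floors cover counting error only. One further sequence search is not reported here.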

Additional observations from a re-analysis of the deposited data

Results flagged for a closer look

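Of 49 sets of 4 PTEC values checked with Dixon's test at its 95% critical value, 2 held a culture that stood apart, and chance marks about 1 in 20 such sets. Kl in non-senescent PTEC replicate 4 was at 16.6 CPM, where the nearest other culture was at 4.90 CPM, a gap of 0.91 of the range. The calcium-binding protein gene S100g in senescent PTEC replicate 3 was at 3.51 CPM, where the nearest other culture was at 1.27 CPM, a gap of 0.879 of the range.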

How the results depend on the processing

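Of the log2 fold changes of single genes under alternatives, 708 kept their direction and side of the threshold, 39 kept their direction but were no longer called, 1 became called and 20, of genes that were not called, changed sign. At a log2 fold change threshold of 1, senescent PTEC had 0 of the 10 genes called higher and 4 lower, and 13 pathway genes called. That threshold called 2067 of all 15434 genes higher and 1686 lower. With the replicate block, 0 of the 10 genes were called between 12 and 3 months and 0 between 24 and 12 months, and pathway calls were 0, 0 and, between 24 and 3 months, 1. In that fit 1930 genes had an unadjusted p under 0.05 between 24 and 12 months and edgeR called 0, whereas DESeq2 without a block called 2 of the 10. The block also ended the call of Slc34a3 between 24 and 3 months (adjusted p = 0.0586, edgeR, where the other settings with no kidney left out gave at most 0.0315) and that of Vdr in PTEC. The block changed no other call of the 10 genes in those 2 comparisons. For kidneys of the same number the labels name no shared batch at any age. DESeq2 called 5 pathway genes between 24 and 3 months and 6 between 12 and 3 months. Of all 30029 genes it called 727 higher and 308 lower in the former comparison and 531 higher and 576 lower in the latter. Between 12 and 3 months, the compared groups alone gave 1 of the 10 genes and 0 pathway genes, upper-quartile scaling gave 2 pathway genes and no filter on low counts 0. Both of the next alternatives were added after seeing the data. With both outlying kidneys left out, 1 of the 10 genes and 0 pathway genes were called between 12 and 3 months and 1 and 1 between 24 and 12 months. The compared groups alone with the replicate block gave 12 pathway genes between 24 and 12 months, where 1297 of all 16686 genes were called higher and 903 lower. With 1 kidney left out at a time, the 10 genes had 1 to 3, 0 to 2 and 0 to 1 calls and the pathway genes 1 to 4, 0 to 3 and 0 to 2 in 24 against 3, 12 against 3 and 24 against 12 months. Sign changes with both outlying kidneys left out were -0.00401 for Fgfr1 and -0.00359 for Pdzk1 between 24 and 3 months. Fgfr1 between 24 and 12 months was at -0.00584 with DESeq2's size factors in edgeR, -0.0458 with upper-quartile scaling, -0.016 with no filter, -0.00769 with a mean of at least 1 CPM, -0.00154 with the replicate block and -0.185 without both outlying kidneys. With 1 library left out, ranges across 0 were -0.00144 to 0.49 for Slc20a1 between 24 and 3 months, -0.18 to 0.36 for Kl between 12 and 3 months, -0.19 to 0.15 for Fgfr1 and -0.31 to 0.10 for Pdzk1 between 24 and 12 months, and -1.04 to 0.25 for Cyp24a1 between non-senescent PTEC and 3-month kidneys. The causes were not tested. Low counts limit Slc34a3, Slc34a1 and Cyp24a1 in senescent PTEC.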
